A study of Mus musculus with 18 samples.

Results

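The subject is 10 mouse aldehyde dehydrogenase genes, Aldh1b1 and 9 further members of its family: Aldh1a1, Aldh1l1, Aldh2, Aldh3a2, Aldh5a1, Aldh6a1, Aldh7a1, Aldh8a1 and Aldh9a1. They were taken by symbol from the 28030 genes in the deposited count table, each symbol matched 1 Ensembl identifier, and all 10 passed the filter on low counts. RNA was sequenced from hepatocytes of wild-type (WT) C57BL/6J male mice aged 12 weeks on normal chow, separated with digitonin into pericentral and periportal cells. Every mouse had been trained for 3 days to fast for 16 h and feed for 8 h. Pericentral and periportal hepatocytes were each collected in 3 states with 3 libraries per group. Before any fast, the mice of all 3 states had eaten for 4 h with 20% sucrose in the water. Fed mice were killed at clock hour 13. The other mice had no food for 8 h, and were killed at clock hour 21, or for 24 h, and were killed at clock hour 13. Clock hour and fasting therefore cannot be told apart in the comparisons of 8 h with fed and of 24 h with 8 h. Digitonin opens the cells on one side of the lobule, and how pure each collection was is not stated. In bulk RNA, fewer cells of a type and less RNA per cell cannot be told apart. Whether a replicate number marks 1 mouse is not stated, and p-values measure only the spread between these libraries.

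Aldehyde dehydrogenases oxidise aldehydes to carboxylic acids with NAD or NADP as the acceptor. In the liver they clear acetaldehyde from ethanol, fatty aldehydes and retinal, and they finish steps in the breakdown of several amino acids. Blood flows along the lobule from the portal tract to the central vein, and hepatocytes on the 2 sides express different metabolic enzymes. The list was chosen by family, with the measured zone difference of Aldh1b1 in these libraries already known, so levels by zone are given as a description without a test. The rule that gave the list did not use the feeding states, so comparisons between states were tested, although earlier results of these libraries were known.

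Aldh1b1 and Aldh3a2 are shown first because their RNAs lay at opposite ends of the zone comparison, and Aldh1a1 because it was the most abundant member per length in fed pericentral cells. Aldh1b1 (ENSMUSG00000035561) lies on chromosome 4 from 45799022 to 45804604 on the plus strand of GRCm38 and has 2 exons. Aldh3a2 (ENSMUSG00000010025) lies on chromosome 11 from 61223417 to 61267464 on the minus strand, with 10 exons in its longest coding transcript. Aldh1a1 (ENSMUSG00000053279) lies on chromosome 19 from 20492715 to 20643465 on the plus strand, with 16 exons in that transcript. The sequences upstream of the RefSeq start sites (GRCm38.p6) are printed 5′ to 3′ on the gene's strand, at chr4:45798772-45799021 for Aldh1b1, chr11:61267187-61267238 for Aldh3a2, and chr19:20492333-20492582 and chr19:20601718-20601960 for the 2 starts of Aldh1a1. Bases that GENCODE places in an exon were left out, which removed 198 of 250 bases for Aldh3a2 and 7 of 250 at the second start of Aldh1a1. The stretch left for Aldh3a2 and that at the second start of Aldh1a1 lie inside the gene positions given above. They are upstream of a RefSeq start, not of the gene as GENCODE places it. Capitals mark matches to 5 short motifs searched on both strands.
Aldh1b1: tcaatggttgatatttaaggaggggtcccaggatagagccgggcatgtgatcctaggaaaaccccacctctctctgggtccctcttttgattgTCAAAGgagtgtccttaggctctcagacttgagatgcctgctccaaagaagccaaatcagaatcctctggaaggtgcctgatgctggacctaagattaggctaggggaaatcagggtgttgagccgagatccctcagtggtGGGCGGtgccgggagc
Aldh3a2: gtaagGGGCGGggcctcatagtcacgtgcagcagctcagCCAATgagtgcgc
Aldh1a1, first start: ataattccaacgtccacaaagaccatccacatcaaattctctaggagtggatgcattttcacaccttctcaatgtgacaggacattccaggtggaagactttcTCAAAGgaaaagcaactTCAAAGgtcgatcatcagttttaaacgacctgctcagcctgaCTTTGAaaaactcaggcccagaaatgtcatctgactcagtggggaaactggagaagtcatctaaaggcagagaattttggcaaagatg
Aldh1a1, second start: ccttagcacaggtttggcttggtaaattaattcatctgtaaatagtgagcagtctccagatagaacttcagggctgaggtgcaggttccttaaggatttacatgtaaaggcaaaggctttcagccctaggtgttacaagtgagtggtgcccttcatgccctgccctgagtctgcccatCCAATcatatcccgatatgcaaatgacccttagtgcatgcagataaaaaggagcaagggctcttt

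The first motif was TATAAA, the core promoter box. Another was CCAAT, which binds nuclear factor Y. The third was GGGCGG, which binds Sp family factors. The fourth was CTTTGA, the core bound by TCF and LEF factors, and the last was AGGTCA, an element bound by nuclear receptors. In the window of 250 bases, Aldh1b1 held CTTTGA in reverse complement 157 bases upstream of the start and GGGCGG 16 bases upstream. Aldh3a2 held GGGCGG 47 bases and CCAAT 13 bases upstream of its RefSeq start, both inside the gene as GENCODE places it. Aldh1a1 held 3 matches to CTTTGA at its first start, and its second start held CCAAT 72 bases upstream. None of the matches shown overlapped another. Among 32851 RefSeq promoter windows of the same length, 13.8% held the motif CTTTGA and 32.7% held the motif GGGCGG. The share with the motif CCAAT was 33.8%, the share with the motif TATAAA was 12.4%, and 14.0% of windows held the motif AGGTCA. A match here describes letters and is not a bound site.

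Libraries held 1.84e+07 to 2.64e+07 estimated counts, and levels are given as CPM, counts scaled to the size of each library. The zone labels were checked on 4 of 8 listed markers, Cyp2e1, Cyp2f2, Hal and Glul. Sds of the same lists is also given, and the single levels of Cyp1a2, Oat and Gls2 are not. The pericentral cytochrome Cyp2e1 lay between 7611 and 16062 CPM in the 9 pericentral libraries and between 325 and 1826 CPM in the 9 periportal libraries, and the periportal cytochrome Cyp2f2 lay between 132 and 793 CPM and between 1578 and 3075 CPM in the same order. Hal, a periportal enzyme of histidine breakdown, lay between 46.8 and 466 CPM and between 552 and 1076 CPM. Glul, the pericentral glutamine synthetase, overlapped between zones, because pericentral 24 h replicate 2 held 111 CPM where the other 8 pericentral libraries held 552 to 1375 CPM. Sds, a periportal serine enzyme, also overlapped through that library, which held 215 CPM where the lowest periportal library held 187 CPM. The same library had the highest Cyp2f2 and Hal of the pericentral libraries, and zone values at 24 h are given with and without it. Summed markers of sinusoidal endothelial cells were 3.25 to 10.97 CPM in pericentral and 3.84 to 31.5 CPM in periportal libraries. Those of Kupffer cells and leukocytes were 0.512 to 5.66 and 0.444 to 22.9 CPM, and those of stellate cells and fibroblasts 0.696 to 5.24 and 1.25 to 15.5 CPM, and their part in the results was not tested.

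Aldh1b1, a mitochondrial enzyme that oxidises acetaldehyde and retinal, was a periportal RNA in every state. In fed mice it measured 0.899, 1.496 and 2.73 CPM in the pericentral libraries and 232, 150.4 and 160.5 CPM in the periportal libraries. After 8 h the levels were 2.58, 1.49 and 1.04 CPM against 81.5, 195 and 194 CPM. After 24 h they were 2.42, 4.01 and 2.17 CPM against 95.7, 62.9 and 108 CPM. The lowest periportal library lay far above the highest pericentral library. The log2 fold change of periportal over pericentral was 6.74 (SE 0.50) when fed, 6.52 (SE 0.50) after 8 h and 4.93 (SE 0.46) after 24 h, which corresponds to 107-fold, 91.8-fold and 30.5-fold. The pericentral values rest on 26 to 109 estimated counts per library and the periportal values on 1512 to 5618. Without pericentral 24 h replicate 2, which held the highest pericentral level, the 24 h value was 5.26.

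Cholangiocytes line the portal side of the lobule, and the sum of their listed markers was higher in the periportal libraries within each state. Across the states the summed level of the 8 listed markers was 21.6 to 42.3 CPM in the pericentral libraries and 34.7 to 65.4 CPM in the periportal libraries, so these ranges overlapped. Epcam was at 0 in all 18 libraries, and Krt19 stayed at or below 0.506 CPM. Of the listed markers 4 passed the filter on low counts. Krt7 spanned 11.1 to 19.6 CPM in the pericentral set and 13.1 to 20.2 CPM in the periportal set, Sox9 2.42 to 8.81 and 6.73 to 17.4 CPM, and Pkhd1 2.17 to 4.65 and 1.91 to 8.62 CPM. These 3 overlapped, and Spp1 did not. Spp1 spanned 5.39 to 10.8 CPM across pericentral and 11.6 to 25.1 CPM across periportal libraries. The part of these cells in the level of Aldh1b1 was not tested.

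Aldh2, the main mitochondrial enzyme for acetaldehyde, was abundant in both zones and higher in pericentral cells. In fed mice it measured 1863, 1745 and 1665 CPM in pericentral and 1152, 1283 and 1163 CPM in periportal libraries. The 8 h values were 1685, 1923 and 1904 CPM against 1477, 1341 and 1355 CPM, and the 24 h values were 2029, 1755 and 2214 CPM against 1418, 1314 and 1249 CPM. The zones did not overlap in any state. The log2 fold changes were -0.55 (SE 0.11), -0.40 (SE 0.11) and -0.59 (SE 0.11) in the order fed, 8 h and 24 h.

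Aldh1a1, the cytosolic retinal dehydrogenase, was also pericentral, by a larger step. Fed pericentral libraries held 1813, 3015 and 2061 CPM and fed periportal libraries 916, 909.8 and 1097 CPM. At 8 h the values were 1345, 1752 and 1979 CPM against 789.7, 687 and 741 CPM, and at 24 h they were 1786, 1831 and 2182 CPM against 779.7, 645 and 682 CPM. Every pericentral library lay above every periportal library, and fed pericentral replicate 2 stood above the other pericentral libraries. The levels were 2.36-fold, 2.29-fold and 2.75-fold higher in pericentral cells in the order fed, 8 h and 24 h. Without that fed library the log2 fold change of periportal over pericentral moved from -1.24 (SE 0.18) to -1.0. Aldh1a1 shares 5.70% of its distinct stretches of 31 bases with the neighbouring Aldh1a7, so reads from those stretches could have been assigned to either. The share with any other gene was larger for Aldh6a1 (17.4%, mostly Bbof1), Aldh5a1 (15.4%), Aldh1l1 (11.4%) and Aldh7a1 (7.5%), at most 1.93% for Aldh2, Aldh8a1 and Aldh9a1, and 0 for Aldh1b1 and Aldh3a2.

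Aldh3a2, which oxidises long-chain fatty aldehydes in the endoplasmic reticulum, had the largest pericentral excess of the 10 genes. In fed mice it measured 556, 681 and 442 CPM in pericentral and 26.4, 72.6 and 35.5 CPM in periportal libraries. The 8 h values were 283, 409 and 567 CPM against 74.7, 29.6 and 13.2 CPM, and the 24 h values were 774, 669 and 788 CPM against 79.1, 71.4 and 17.5 CPM. No periportal library reached the lowest pericentral level, but the periportal libraries of 1 state differed among themselves by several fold. The log2 fold changes were -3.64 (SE 0.66), -3.42 (SE 0.66) and -3.73 (SE 0.67), or 12.5-fold, 10.7-fold and 13.3-fold in favour of pericentral cells. Leaving out periportal 8 h replicate 1 moved the 8 h value to -4.30.

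Aldh1l1, the cytosolic 10-formyltetrahydrofolate dehydrogenase of folate metabolism, was higher in periportal cells within each state. Fed values were 1028, 1217 and 1217 CPM in pericentral and 1493, 1739 and 1291 CPM in periportal libraries. At 8 h they were 935, 1071 and 907 CPM against 1190.1, 1777 and 1914 CPM, and at 24 h 951, 878 and 1024 CPM against 1423, 1230.0 and 1303 CPM. The zones did not overlap within a state, although the lowest periportal library at 8 h lay under 2 of the fed pericentral libraries. The log2 fold changes were 0.39 (SE 0.16), 0.74 (SE 0.16) and 0.47 (SE 0.16). Without pericentral 24 h replicate 2 the log2 zone values at 24 h were 0.42 for Aldh1l1, -0.68 for Aldh2, -1.5 for Aldh1a1 and -3.80 for Aldh3a2.

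**Figure D1:**
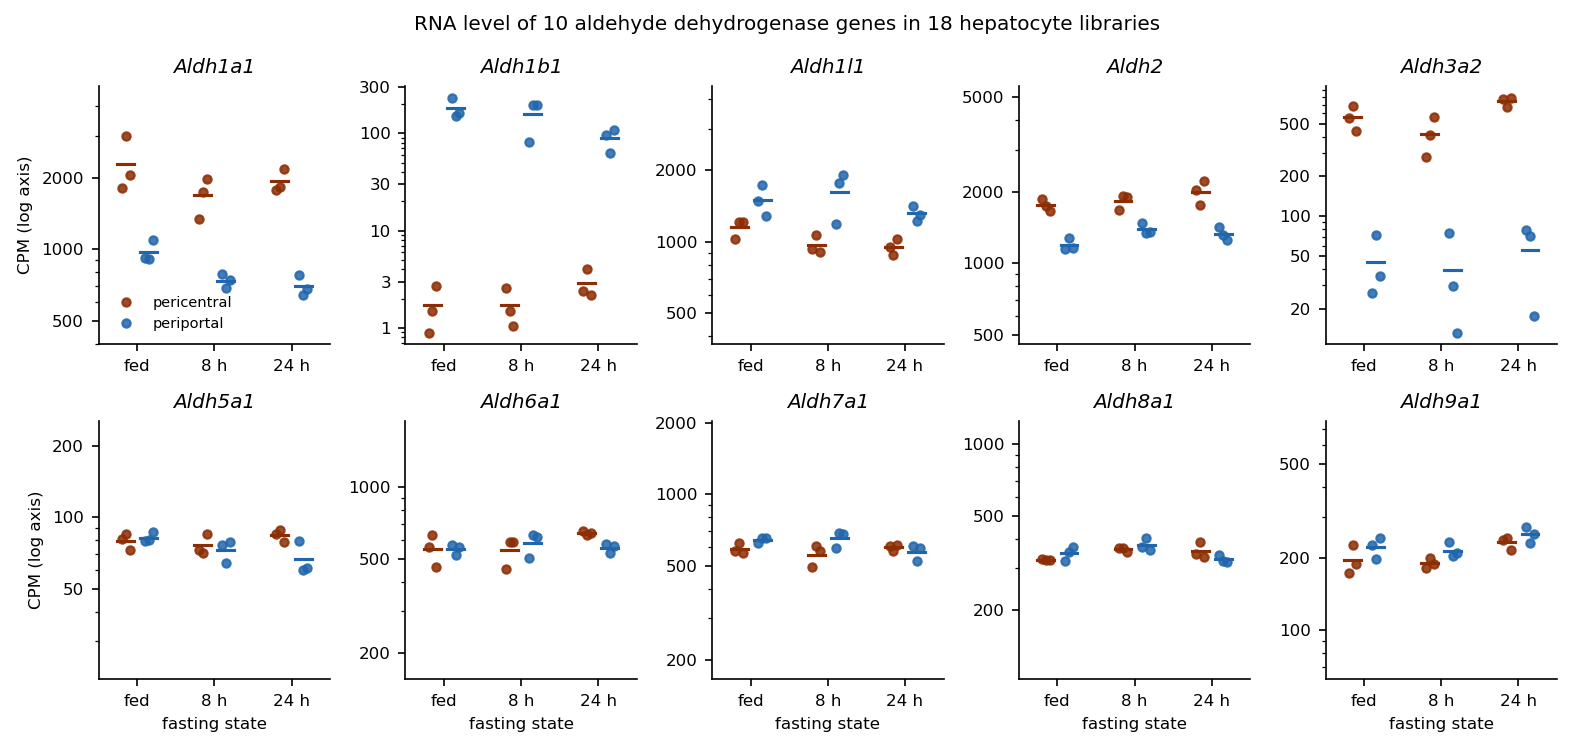
Level of each gene in CPM on a log axis, by feeding state, with 1 point per library and a bar at the mean of 3 libraries in pericentral (brown) and periportal (blue) hepatocytes. The means of Aldh1b1 and Aldh3a2 differ between zones by more than 10-fold in opposite directions. Single libraries of Aldh3a2 lie closer, at 8 h 283 CPM in the lowest pericentral and 74.7 CPM in the highest periportal library. The lower row of 5 genes shows zones that mostly overlap.

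The 5 remaining members, which act in the breakdown of amino acids or in carnitine synthesis, differed little between zones. Aldh5a1, the succinic semialdehyde dehydrogenase of the GABA pathway, spanned 70.5 to 88.6 CPM across pericentral libraries and 59.9 to 86.3 CPM across periportal ones. Aldh6a1, the methylmalonate semialdehyde dehydrogenase of valine and pyrimidine breakdown, ranged from 454 to 655 CPM and from 503 to 630.1 CPM. Aldh7a1, which acts on the semialdehyde of lysine breakdown, ranged from 492 to 621 CPM and from 524 to 689.5 CPM. The ranges of each of these genes lay almost on top of each other. Aldh8a1, which works in the kynurenine branch of tryptophan breakdown, spanned 325 to 386 CPM across pericentral libraries and 319 to 402 CPM across periportal ones. Aldh9a1, which oxidises the trimethylated aldehyde on the way to carnitine, ranged from 174 to 245 CPM and from 198 to 270.5 CPM. Their log2 fold changes between zones lay between -0.34 (Aldh5a1 at 24 h, SE 0.12) and 0.23 (Aldh7a1 at 8 h, SE 0.10). Without pericentral 24 h replicate 2 their values at 24 h lay between -0.30 (Aldh5a1) and 0.14 (Aldh9a1).

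Counted over the 10 genes, 6 had no overlap between the zones when fed, and 6 again after each fast. Over all 12477 genes tested the share without overlap was 28.3%, 23.9% and 22.1% in the same order. Aldh1b1, Aldh1l1, Aldh1a1, Aldh2 and Aldh3a2 were among the 6 each time. The sixth was Aldh7a1 in fed mice (periportal higher, 623 to 652 CPM against 568 to 621 CPM), Aldh9a1 at 8 h (periportal higher, 204 to 234 CPM against 182 to 201 CPM) and Aldh6a1 at 24 h (pericentral higher, 633 to 655 CPM against 528 to 575 CPM). The zone difference of Aldh1b1 was known when the list was made, so nothing is read from these counts.

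**Figure D2:**
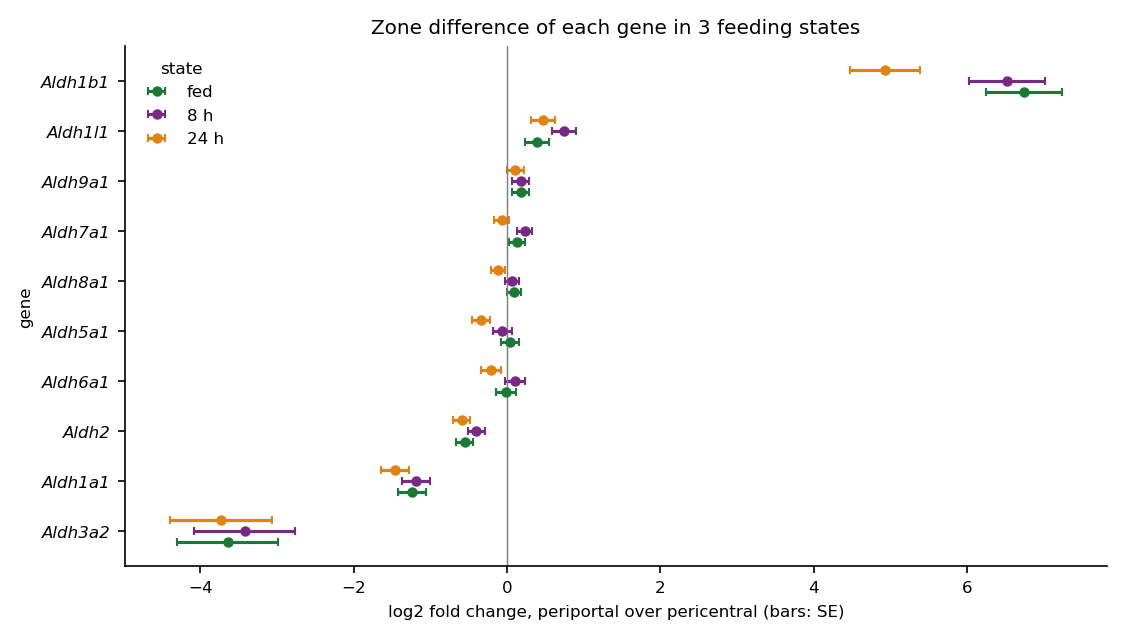
Log2 fold change of periportal over pericentral level for each gene in fed mice and after 8 h and 24 h without food, with bars of 1 SE from a fit of 18 libraries. Aldh1b1 lies at 4.93 to 6.74 and Aldh3a2 at -3.73 to -3.42, and 5 genes stay within 0.34 of 0.

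Levels of different genes were compared only per length, as CPM per kilobase of the longest coding transcript. In fed pericentral cells Aldh1a1 led with 974 ± 269 (SD, n = 3), followed by Aldh2 with 455 ± 25.7 and Aldh1l1 with 276 ± 26.2, and Aldh1b1 was last with 0.743 ± 0.405. In fed periportal cells the 3 leaders were Aldh1a1 with 413 ± 45.0, Aldh1l1 with 361 ± 53.8 and Aldh2 with 310.1 ± 18.7, whose ranges of 386 to 465, 309 to 417 and 298 to 332 ran into each other. Aldh1b1 stood at 78.7 ± 19.3 there, level with Aldh9a1 at 78.7 ± 8.23, and above Aldh3a2 and Aldh5a1, which both averaged 14.5. Behind the leaders, Aldh3a2, Aldh6a1, Aldh7a1 and Aldh8a1 lay between 142 and 181 in fed pericentral cells, and Aldh6a1, Aldh7a1 and Aldh8a1 between 154 and 162 in fed periportal cells, with overlapping libraries. The order depends on the length used. Over the length of all exons together, Aldh1a1 averaged 465 ± 129 in fed pericentral cells, above Aldh2 at 343 ± 19.4. In fed periportal cells Aldh1l1 then led with 334 ± 49.7, ahead of Aldh2 with 234 ± 14.1 and Aldh1a1 with 197 ± 21.5.

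As a share of the summed level per kilobase of the 10 genes, Aldh1a1 made up 39.8% in fed pericentral and 23.7% in fed periportal cells. Over all exons together these shares were 30.3% and 16.1%, and in fed periportal cells Aldh1l1 made up 27.1% and Aldh2 19.0%. Over the longest coding transcript, in fed pericentral and fed periportal cells, Aldh1b1 made up 0.0313% and 4.53%, and Aldh3a2 made up 7.46% and 0.828%. After 24 h without food, over that same transcript and in the same order of zones, Aldh1b1 made up 0.0529% and 2.46%, and Aldh3a2 made up 10.04% and 1.15%. These lengths assume the same transcript in every library, and transcript use was not measured.

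**Figure D3:**
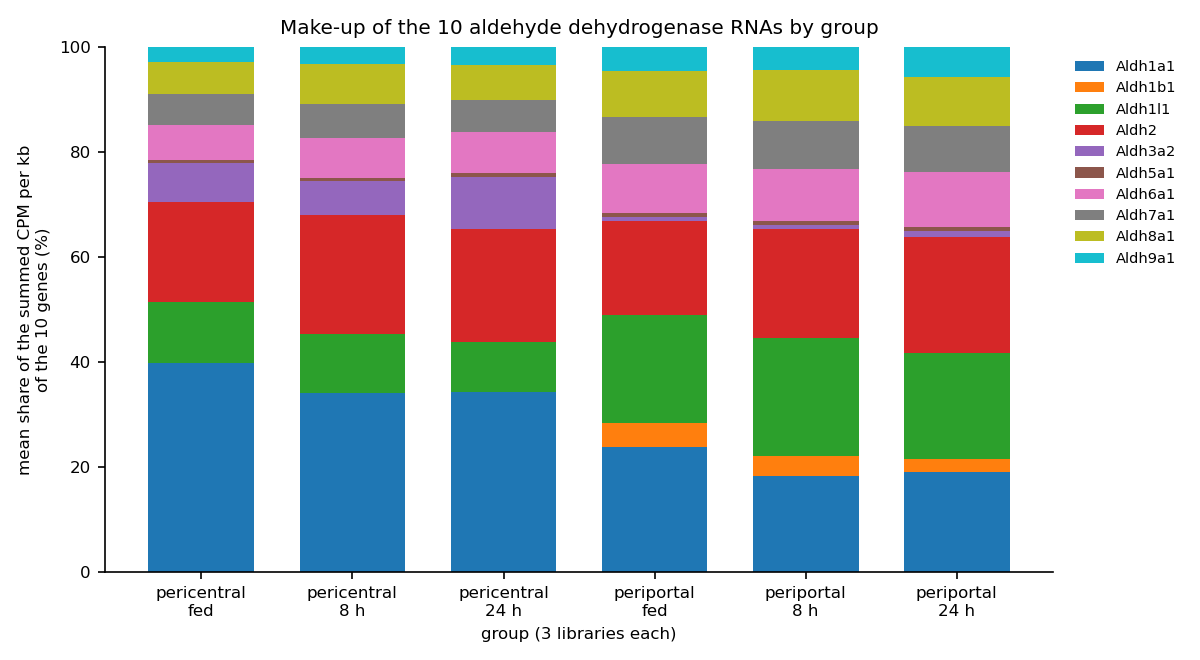
Mean share of the summed CPM per kilobase of the longest coding transcript of the 10 genes in each of 6 groups of 3 libraries, stacked to 100%. Aldh1a1 falls from 39.8% in fed pericentral to 23.7% in fed periportal cells, while Aldh1l1 takes 11.5% and 20.7%.

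EdgeR called few differences between states among these RNAs, and none within a single zone. With 3 libraries per group, a gene that was not called is not shown to be unchanged. The edgeR counts at the adjusted threshold are given beside the share over all genes, and nothing about the family is read from any count. Differences between states were tested with the edgeR quasi-likelihood test and Benjamini-Hochberg adjustment over 12477 genes, at an adjusted p under 0.05. In pericentral cells 0 of 10 were called for 8 h against fed, 24 h against fed and 24 h against 8 h, where 13.9%, 21.8% and 9.71% of all genes tested were called. In periportal cells 0 of 10 were called in the same comparisons, against 14.4%, 19.6% and 7.46% of all genes. At an unadjusted p under 0.05 edgeR counted 1, 1 and 1 of the members in pericentral and 1, 3 and 2 in periportal cells. DESeq2 called 0, 0 and 1 in pericentral and 0, 1 and 0 in periportal cells. Over all genes it called 2064, 3012 and 1580 in pericentral and 2149, 2750 and 1366 in periportal cells. Limma-voom called 1 member in periportal cells for 24 h against fed and 0 in the other 5 comparisons. No share over all genes is given for limma-voom or for the unadjusted p.

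Averaged over the zones, 1 member was called at 8 h against fed, where 26.4% of all genes were called. At 24 h against fed 1 member was called higher and 1 lower, beside 17.0% and 17.5% of all genes. At 24 h against 8 h 1 member was called, beside 20.2% of all genes. The median log2 change of the 10 members was -0.06, -0.02 and 0.02 in these comparisons, beside 0.01, 0.01 and -0.02 over all genes tested. The comparisons against fed share the fed libraries.

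Aldh1a1 fell by 0.42 on the log2 scale at 8 h (SE 0.13, edgeR adjusted p = 0.0199) and was lower by 0.36 at 24 h (log2 fold change -0.36, SE 0.13, edgeR adjusted p = 0.0349), averaged over zones. Its mean went from 2296 ± 635 to 1692 ± 321 and 1933 ± 217 CPM in pericentral cells and from 974 ± 106 to 739 ± 51.3 and 702 ± 69.7 CPM in periportal cells (SD, n = 3). All 6 periportal libraries of the fasted states lay under the 3 fed ones, whereas the pericentral states overlapped. The call at 8 h was lost without pericentral fed replicate 2 (log2 fold change -0.29, edgeR adjusted p = 0.0641), periportal fed replicate 3 (-0.37, 0.0525) or pericentral 8 h replicate 1 (-0.35, 0.0508). The call at 24 h was lost without pericentral fed replicate 2 (-0.24, edgeR adjusted p = 0.102), periportal fed replicate 3 (-0.32, 0.0766), pericentral 24 h replicate 1 (-0.34, 0.0679) or 2 (-0.34, 0.0691), or periportal 24 h replicate 2 (-0.33, 0.078) or 3 (-0.35, 0.0666).

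Aldh9a1 rose by 0.21 on the log2 scale at 24 h against fed (SE 0.08, edgeR adjusted p = 0.0447) and by 0.26 against 8 h (SE 0.08, edgeR adjusted p = 0.0266), averaged over zones. Pericentral libraries held 174, 227 and 189.7 CPM when fed, then 182, 201 and 189 CPM, then 239.9, 245 and 218 CPM. Periportal libraries held 228, 198 and 244 CPM, then 234, 204 and 210.0 CPM, then 270.5, 233 and 254 CPM. Within each zone the 24 h libraries overlapped the fed ones. The call against fed was lost without the filter on low counts (edgeR adjusted p = 0.0865), with only the groups compared (0.0643) and with a replicate block (0.0568). Same-numbered libraries of the 2 zones at 24 h correlated at 0.121 to 0.165, and the test treats them as independent. The call was kept under the omission of only 5 single libraries, which were pericentral fed replicate 2, periportal fed replicate 3, periportal 8 h replicate 1, pericentral 24 h replicate 3 and periportal 24 h replicate 2, and the adjusted p ran from 0.0139 to 0.13 over all alternatives. The call against 8 h was lost without pericentral 8 h replicates 1 or 3, periportal 8 h replicates 2 or 3, pericentral 24 h replicates 1 or 2, or periportal 24 h replicates 1 or 3, with log2 changes of 0.24 to 0.26 and adjusted p of 0.0501 to 0.0673.

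**Figure D4:**
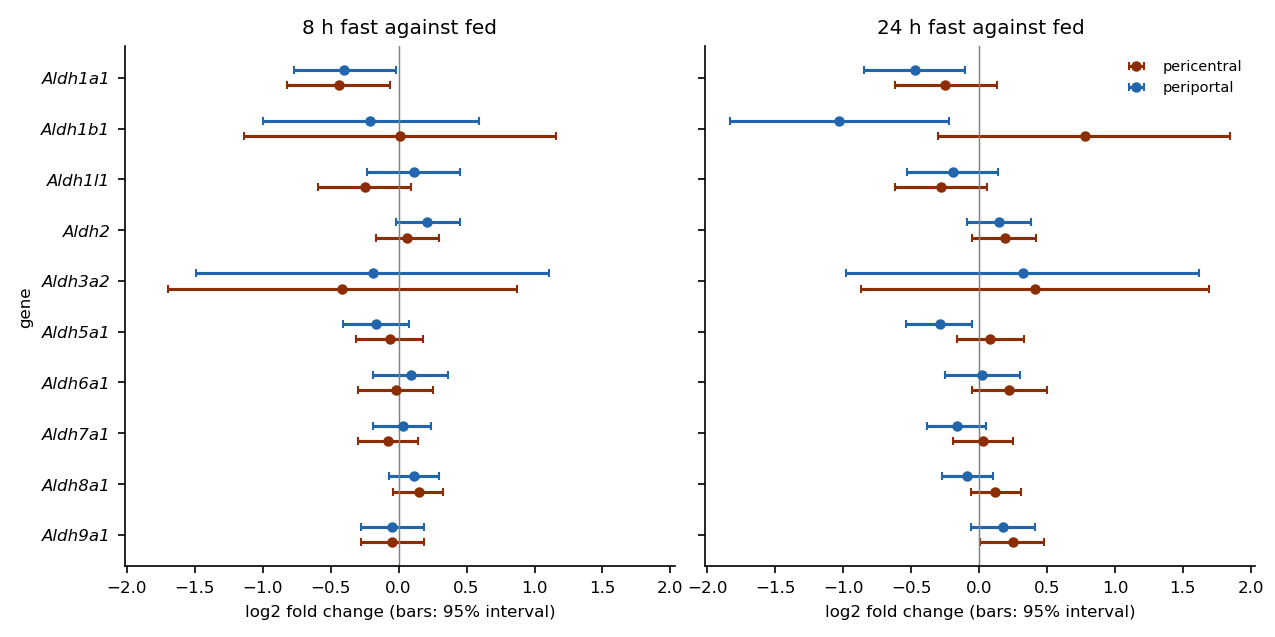
Log2 fold change at 8 h (left) and 24 h (right) without food against fed mice for each gene, in pericentral (brown) and periportal (blue) cells, with 95% intervals from a fit of 18 libraries. The widest intervals belong to Aldh1b1 and Aldh3a2, and edgeR called no change within a zone at the adjusted threshold.

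Aldh1b1 had the largest change against fed within a zone at 24 h among the 10 members, and it missed the threshold. In periportal cells its mean was 181 ± 44.4 CPM fed and 88.7 ± 23.2 CPM at 24 h (SD, n = 3), and the 3 libraries at 24 h lay under the 3 fed ones. The log2 change was -1.03 (SE 0.37, 95% interval -1.83 to -0.22, edgeR adjusted p = 0.0704), and the adjusted p ran from 0.0203 to 0.233 over 24 alternatives. Without periportal 8 h replicate 1, which held 81.5 CPM, edgeR gave 0.0333, and without periportal fed replicate 1 the change was -0.81 with 0.233. In pericentral cells the change was 0.78 (95% interval -0.30 to 1.85, edgeR adjusted p = 0.304) at 1.71 ± 0.931 and 2.87 ± 0.994 CPM. Without pericentral 24 h replicate 2 it was 0.45 (edgeR adjusted p = 0.654), and without pericentral fed replicate 3 it was 1.28 (edgeR adjusted p = 0.141).

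Among the other members edgeR with all 18 libraries called no change within a zone. In periportal cells at 24 h against fed the log2 change was -0.47 for Aldh1a1 (edgeR adjusted p = 0.0733) and -0.29 for Aldh5a1 (edgeR adjusted p = 0.0847), which reached 0.0313 without pericentral fed replicate 2 and 0.0154 without periportal 24 h replicate 1, respectively. For Aldh1a1 the DESeq2 adjusted p was 0.0401, and edgeR gave 0.0357 with only the groups compared. The DESeq2 adjusted p of Aldh9a1 in pericentral cells at 24 h against 8 h was 0.0461, beside 0.106 from edgeR. Aldh9a1 in pericentral cells at 24 h against fed was 0.25 (edgeR adjusted p = 0.124) and reached 0.0411 without pericentral fed replicate 2. Aldh1l1 at 24 h against 8 h in periportal cells was -0.30 (edgeR adjusted p = 0.282) and reached -0.49 and 0.0426 without periportal 8 h replicate 1. Without that library its change at 24 h against fed, averaged over zones, was also called at -0.24 (edgeR adjusted p = 0.041, from 0.12). For Aldh6a1, Aldh7a1 and Aldh8a1 the 95% intervals of the averaged change at 24 h against fed were -0.07 to 0.32, -0.22 to 0.09 and -0.11 to 0.15. For Aldh3a2 the interval of -0.55 to 1.28 leaves room for a change of over 2-fold.

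Whether the zones answered fasting differently was tested as the periportal minus the pericentral change. For fed to 8 h, fed to 24 h and 8 h to 24 h, edgeR called 0 of 10 members, beside 0%, 0.0160% and 0% of all genes tested. At an unadjusted p under 0.05 it counted 0, 2 and 1 members, and DESeq2 and limma-voom each called 0 in all 3. Over all genes DESeq2 called 6, 38 and 3. The largest value was that of Aldh1b1 from fed to 24 h, -1.80 (SE 0.62, 95% interval -3.15 to -0.46, edgeR adjusted p = 0.505). Aldh5a1 came next in p, with -0.38 (SE 0.16, edgeR adjusted p = 0.60).

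The levels of the 2 most zoned members were set against the main cytochrome marker of their zone within each zone, in 9 libraries that include all 3 states. Libraries were permuted freely across the states. A difference between states shared by both genes could thus give a small p. A relation among libraries of the same state was not tested. Both members were chosen by their zone difference in these libraries. Carry-over of cells from the other zone could move a zoned gene and its zone marker together, which favours a positive r from the start. The part of carry-over was not tested, and no conclusion is drawn from the p-values. Aldh3a2 followed Cyp2e1 with Pearson r of 0.80 (exact permutation p = 0.00982, adjusted over 4 relations 0.0196; Spearman rho 0.88, p = 0.00308) in pericentral and 0.83 (exact permutation p = 0.0089, adjusted 0.0196; rho 0.77, p = 0.0214) in periportal libraries. Leaving out the 2 libraries farthest from the median of Cyp2e1 gave r of 0.68 and 0.91. In CPM without correction for length, Aldh3a2 was 3.71% to 6.52% of the Cyp2e1 level in pericentral and 3.76% to 10.9% in periportal libraries. The ratio overlapped between zones.

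Aldh1b1 followed Cyp2f2 with r of 0.76 (exact permutation p = 0.0212, adjusted 0.0283; rho 0.75, p = 0.0255) in periportal and 0.66 (exact permutation p = 0.0468, adjusted 0.0468; rho 0.55, p = 0.133) in pericentral libraries. Without the 2 farthest libraries these became 0.60 and 0.05, so the pericentral relation rests on those libraries. Likewise in CPM, Aldh1b1 was 0.325% to 1.36% of the Cyp2f2 level in pericentral and 3.63% to 9.09% in periportal libraries, with no overlap. Values within each state rest on 3 libraries and were not computed.

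**Figure D5:**
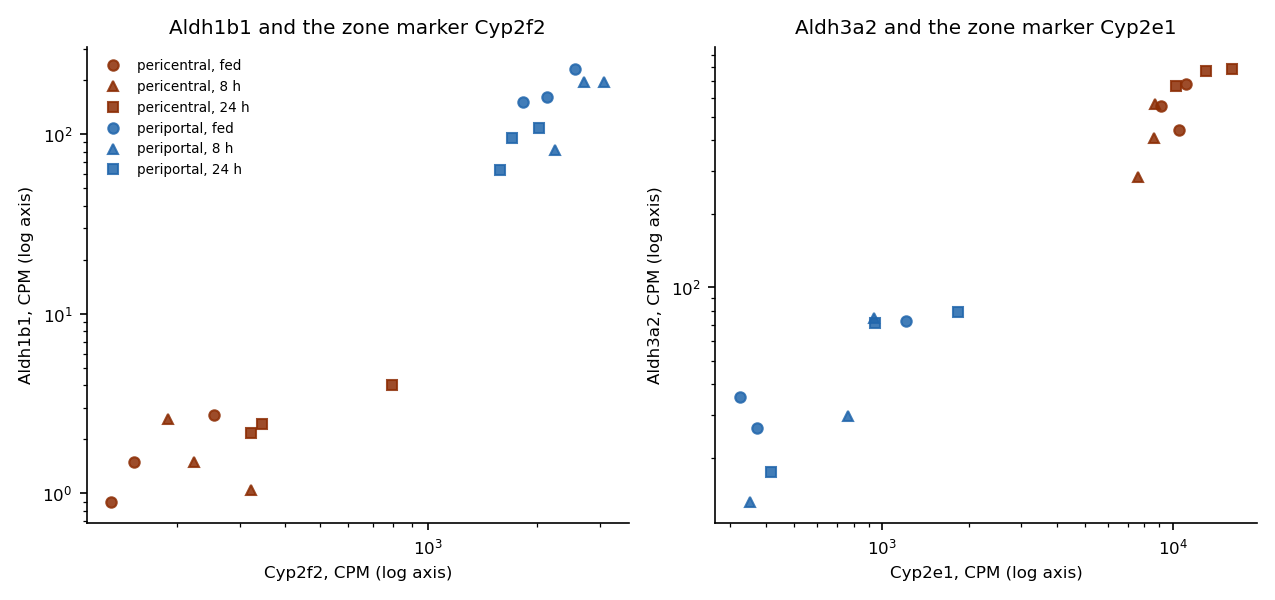
Aldh1b1 against Cyp2f2 (left) and Aldh3a2 against Cyp2e1 (right), both in CPM on log axes, with 1 point per library, color for the zone and shape for the state. Aldh3a2 and Cyp2e1 lie along 1 band across both zones, whereas Aldh1b1 stays at or under 4.01 CPM in pericentral libraries at Cyp2f2 levels of 132 to 793 CPM.

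The genes whose log2 CPM was most like that of each member over the 18 libraries are given as a description, since the libraries share their zones. For Aldh1b1 they were Uroc1 (urocanase of histidine breakdown, r = 0.970), Gm4956 (0.969) and Cdh1 (E-cadherin, 0.967). Within periportal libraries alone these fell to 0.401, 0.873 and 0.717. For Aldh3a2 they were Khdrbs3 (0.981), Cyp2e1 (0.979) and Pparg (0.972), with 0.910, 0.800 and 0.611 within pericentral libraries. For Aldh1a1 they were Slco1b2 (a transporter of bile acids and drugs, 0.968), Akr1c20 (0.961) and Sult2a8 (0.954). For Aldh2 they were Ube2e2 (0.957), Cyp27a1 (a sterol hydroxylase of bile acid synthesis, 0.956) and Npr2 (0.942).

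For the members that differed less by zone the likeness was lower. Aldh1l1 was closest to Mdh1 (0.909), Slc37a4 (0.900) and Ext1 (0.886), and Aldh5a1 to Cat (catalase, 0.850), Mapk9 (0.849) and Plcg1 (0.825). Aldh6a1 was closest to Dbt (0.797), a subunit of the branched-chain ketoacid dehydrogenase, and to Plcb1 (0.786) and Pmpcb (0.781). Aldh7a1 was closest to Mut (0.849), Sdha (0.846) and Pcca (0.807), where Mut and Pcca encode enzymes of propionate use. Aldh8a1 was closest to Tbc1d14 (0.833), Dlc1 (0.816) and Magix (0.775), and Aldh9a1 to Acad11 (0.883), Cask (0.871) and Retsat (0.838). Acad11 spanned 268 to 532 CPM across pericentral and 358 to 539.9 CPM across periportal libraries.

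Of 11 further aldehyde dehydrogenase genes 7 passed the filter. Aldh1a2, Aldh1a3, Aldh3b2 and Aldh3b3 did not, with at most 0.415 CPM in any library. Aldh1a7, a close relative of Aldh1a1, fell by 0.65 on the log2 scale at 24 h against fed, averaged over zones (SE 0.07, edgeR adjusted p = 1.57e-06). Its mean fell from 208 ± 14.6 to 132 ± 4.20 CPM (SD, n = 3) for pericentral cells and from 223 ± 21.9 to 142 ± 5.63 CPM for periportal cells, with no overlap between fed and 24 h in either zone. Its log2 zone values lay between 0.10 and 0.22, and none was called. The difference between these 2 genes was not tested, and 13.8% of the 31-base stretches of Aldh1a7 are shared with Aldh1a1.

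Aldh4a1, a mitochondrial enzyme of proline breakdown, was higher in pericentral cells in all 3 states, with log2 changes of -0.43, -0.45 and -0.44 (edgeR adjusted p = 0.0114, 0.0106 and 0.0177). It was the 1 gene of the 7 called between zones, where 3.89% of all genes were called higher in periportal cells and 4.13% lower in fed mice, 3.72% and 3.42% at 8 h, and 1.70% and 2.47% at 24 h. It also shares 31.03% of its stretches with another annotated gene, so its level is uncertain. Aldh1l2, the mitochondrial counterpart of Aldh1l1, rose by 0.80 at 24 h against fed (SE 0.30, edgeR adjusted p = 0.0473) at only 0.273 to 1.496 CPM. Aldh3a1, Aldh3b1, Aldh16a1 and Aldh18a1 were called in none of these comparisons, and Aldh16a1 was the only 1 of the 4 above 2.19 CPM in any library.

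Genes that act beside the members were counted by pathway at 24 h against fed, averaged over zones, where 17.0% of all genes tested were called higher and 17.5% lower. Around ethanol and acetaldehyde 0 of 8 rose and 1 fell, Acss2, which makes acetyl-CoA from acetate (log2 change -1.61, edgeR adjusted p = 0.000152). The list median was -0.15 beside 0.01 over all genes. In retinoid metabolism 2 of 15 rose and 3 fell (median -0.15), among them the retinol dehydrogenase Rdh11 (-1.43), the retinol transporter Stra6l (-0.79), Rbp4, the plasma carrier of retinol (0.31), and Dgat1 (0.28). In folate metabolism 7 of 19 rose and 2 fell (median 0.11), with the mitochondrial folate carrier Slc25a32 (1.29), the folate transporter Slc19a1 (0.98) and the glycine cleavage subunit Gldc (0.64) higher. The 2 lower genes, named after their values were seen, were Shmt1 (-0.60) and Mtfmt (-0.42).

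Of the genes that supply fatty aldehydes 8 of 14 rose and 2 fell (median 0.28). The fatty acid omega-hydroxylases Cyp4a14 (1.74), Cyp4a10 (1.62), Cyp4a31 (1.62) and Cyp4a32 (0.85) led that list. How much sequence these related genes share was not measured, so their single levels are uncertain. In valine and pyrimidine breakdown 4 of 14 rose and 1 fell (median 0.14), with Dpys (0.38), Bckdha (0.37) and Dbt (0.27) up and Bcat2 (-0.48) down. Of the genes around GABA and succinic semialdehyde 2 of 9 rose and 0 fell (median 0.08), Ogdh (0.40) and Suclg1 (0.36). In lysine breakdown and betaine synthesis 4 of 13 rose and 1 fell (median 0.04), with Hykk (1.47), the first lysine enzyme Aass (1.06) and Dhtkd1 (0.60) up and the choline transporter Slc44a1 (-0.46) down.

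In the tryptophan to kynurenine pathway 2 of 10 rose and 2 fell (median 0.04). The entry enzyme Tdo2 (0.80) and Afmid (0.30) rose, and Ido2 (-0.42) and Qprt (-0.36) fell. Around carnitine 2 of 7 rose and 2 fell (median -0.07). The carnitine transporter Slc22a5 rose by 2.11 and Sat1 by 0.53, whereas Slc25a45 (-1.39) and Srm (-1.07) fell. Of the members in the pathways counted, Aldh1b1, Aldh1l1, Aldh2, Aldh3a2, Aldh5a1, Aldh6a1, Aldh7a1 and Aldh8a1 were not called in the same edgeR comparison. Aldh1a1 was called lower and Aldh9a1 higher, and these calls were lost under 6 and 16 of 24 alternatives, respectively.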

How the data were processed

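RNA was measured in 18 hepatocyte libraries, 6 groups of 3. The authors deposited estimated counts per gene in 1 table of 28030 Ensembl genes. Per the submitters' processing notes, kallisto 0.46.0 and mm10 were used, without a stated role, and the annotation and strand use are not given in the sources used here. Total counts were 1.84e+07 to 2.64e+07. They were rounded, and 12477 genes passed filterByExpr.

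A single edgeR 4.0.16 quasi-likelihood fit (robust, TMM, R 4.3.3) held 1 coefficient per group, and p-values were adjusted over all genes tested. CPM used the TMM factors. Members and lists were chosen with earlier results of these data known. Named genes were all members, the tested family, up to 4 called genes of each pathway with the largest change at 24 h against fed, and the 3 genes with a mean of at least 10 CPM most correlated with each member. A gene that this rule names in the folate list is not reported here. Among the 9 pathway lists, Tmlhe was not matched by symbol and is not analysed here, and Mmut, which the table holds under its older symbol Mut, was not counted in the valine list. Gene positions are GENCODE M21 on GRCm38. The test was checked on simulated data.

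Alternatives were DESeq2 1.42.0 size factors and Wald test, limma-voom (limma 3.58.1), no filter beyond 1 count, only the groups compared, a replicate block and leaving out each library. For the log2 zone values, the size factors and the omissions were added after seeing the data. Same-numbered libraries of 2 states correlated between -0.12 and 0.206, and no comparison had all 3 pairs over 0.1, so numbers were not taken to pair states. The 2 zones at 24 h had 0.121 to 0.165.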

Additional observations from a re-analysis of the deposited data

How the results depend on the processing

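Over 24 alternatives, none of 19 changes with an unadjusted p under 0.05, or a call under any alternative, reversed its sign. These 19 were chosen by p or by the same alternatives, so a reversal was unlikely from the start. Of the other 101 changes, 36 changed sign under an alternative, and by the same choice none of these was called. For 24 h against fed averaged over zones, the count of members called was 2, and 1 with no filter beyond 1 count, 1 with only the groups compared and 1 with the replicate block, where Aldh9a1 was lost. For 24 h against 8 h averaged over zones it was 1, and 0 with no filter beyond 1 count. For periportal 24 h against fed it was 0, and 2 with only the groups compared, 1 with the DESeq2 Wald test and 1 with limma-voom. For pericentral 24 h against 8 h it was 0, and 1 with the DESeq2 Wald test. Leaving out single libraries gave 0 to 1 members called for pericentral 24 h against fed, 0 to 1 for periportal 24 h against fed, 0 to 1 for periportal 24 h against 8 h, 0 to 1 for 8 h against fed averaged over zones, 0 to 3 for 24 h against fed averaged over zones and 0 to 1 for 24 h against 8 h averaged over zones. No share over all genes is given beside these counts, and nothing about the family is read from them. The cause was not tested. The log2 zone differences under DESeq2 size factors and under the omission of each library, alternatives added after seeing the data, moved by more than 1 SD between replicates (the SE times the square root of 1.5) only for Aldh1a1 fed (-1.0 without pericentral fed replicate 2) and Aldh3a2 at 8 h (-4.30 without periportal 8 h replicate 1). With either scaling the median log2 change of all genes lay between -0.02 and 0.015. Levels of Aldh1b1 in pericentral libraries are limited by depth at 26 to 109 counts.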
